A study of Mus musculus with 6 samples.

Results

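Neurod1, Insm1, Nkx6.1, Nkx2.2, Isl1 and St18, transcription factor genes of pancreatic endocrine differentiation, are described here in 266.6 cells, a mouse acinar tumour line. They were taken by symbol and are 6 of 20596 named genes in the deposited table, where a full stop stands for the hyphen of a symbol. The choice was made from the difference between the same libraries that are described here, so the values of the 6 genes are a description and carry no test. The 3 CAF_CM samples are cells labelled as treated with medium conditioned by cancer-associated fibroblasts, and the 3 others carry the treatment label Control. All were grown in high-glucose DMEM with 10% serum. An exposure of up to 40 days is given in a protocol text attached to all 6 samples, so neither the exposure of each CAF_CM sample nor the age of the control cultures is known, and the medium and the length of culture cannot be told apart. The line comes, as background, from an acinar tumour of a mouse carrying a viral oncogene under an elastase promoter. The labels do not say whether replicates were separate cultures, so p-values here cover the variation among these samples, possibly technical.

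Endocrine cells of the pancreas arise from progenitors in which the factor Neurog3 is switched on for a short time. Neurog3 activates Neurod1 and Insm1, and Nkx2.2, Nkx6.1, Isl1 and members of the Myt family, to which St18 belongs, then take part in forming and keeping islet cell types. Neurod1 is a basic helix-loop-helix activator that pairs with E proteins on the sequence CANNTG, called an E-box. Insm1 and St18 are zinc finger proteins, Nkx6.1 and Nkx2.2 are homeodomain proteins, and Isl1 is a LIM homeodomain protein. Several of these factors also act in neurons.

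The promoters of Neurod1 and Nkx6.1 are shown because these members differed by more than 2-fold between the groups. Each is the 250 bases before the RefSeq gene start in build GRCm38.p6, written 5′ to 3′ on the gene's strand, with E-boxes in capitals. Neurod1 lies on the minus strand at chr2:79456637-79456886 and Nkx6.1 on the minus strand at chr5:101664712-101664961.
Neurod1 promoter: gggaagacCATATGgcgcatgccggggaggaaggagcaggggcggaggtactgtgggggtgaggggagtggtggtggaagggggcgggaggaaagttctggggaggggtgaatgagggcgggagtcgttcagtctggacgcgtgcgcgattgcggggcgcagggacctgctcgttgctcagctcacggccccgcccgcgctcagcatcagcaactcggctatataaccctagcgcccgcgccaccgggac
Nkx6.1 promoter: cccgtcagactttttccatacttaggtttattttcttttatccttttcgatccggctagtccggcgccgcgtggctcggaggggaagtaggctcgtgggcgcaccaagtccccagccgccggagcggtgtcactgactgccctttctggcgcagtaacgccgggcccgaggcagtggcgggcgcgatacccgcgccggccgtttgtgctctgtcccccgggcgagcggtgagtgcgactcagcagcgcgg
The Neurod1 window held 1 E-box, CATATG, at position -242 counted from the gene start, and the Nkx6.1 window held none. Among 32536 different RefSeq windows of this length, 66.2% held at least 1 match to CANNTG, a motif that reads the same on both strands, and 3.42% held CATATG. RefSeq windows were found for 4 of the 6 members, and those of Nkx2.2 and Isl1 held 3 and 1 E-boxes. A match describes these letters only.

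The libraries held 18622370 to 21002226 reads each. Spread was wider among CAF_CM than among control libraries, with a median SD over genes of 0.12 against 0.067 on the log2(value + 1) scale. The labelled cell type was checked against 28 acinar markers, of which 26 had a row. Their summed level was 45448 to 51115 normalized counts in CAF_CM libraries and 78500.4 to 81419 in control libraries. Of 22 tested, 10 fell and 1 rose, beside 16.1% that fell and 18.3% that rose over all genes tested. Ptf1a, Cpa1 and Bhlha15 were among those that did not pass the test. The rise, that of Nr5a2, was lost without control replicate 1 or 2, while without CAF_CM replicate 2 there were 3 rises. The falls numbered 8 to 11 over the alternatives listed below, and those of Cel and Prss1 were among the falls lost. The largest part of the summed level was that of Ctrb1. Ctrb1, a chymotrypsinogen gene, fell to 23668 ± 2338 normalized counts in CAF_CM, against 45083 ± 997 in control libraries (mean ± SD, with 3 samples a group in this and later values). The part of the acinar markers in the values of the 6 genes was not tested. In bulk RNA, fewer cells of a type and less RNA per cell cannot be told apart.

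Neurod1 showed the largest difference of the 6 genes. Its level was 292, 177 and 229 normalized counts in CAF_CM replicates 1, 2 and 3, against 54.9, 51.0 and 57.6 in control replicates 1, 2 and 3. Every CAF_CM library lay above every control library, and replicate 2 was the lowest of them. The means were 233 ± 57.7 in CAF_CM and 54.5 ± 3.30 in control libraries, a log2 difference of 2.05 (SE 0.17) on the log2(value + 1) scale. By this difference Neurod1 ranked 6 of 16169 genes tested, which are those reaching 10 normalized counts in 3 or more libraries. Its coefficient of variation was 24.8% among CAF_CM and 6.05% among control libraries. Neurod1 overlaps Cerkl on the same strand, and Cerkl had 5.58 ± 1.46 normalized counts in CAF_CM and 3.05 ± 1.08 in control libraries. The noncoding gene Gm26755 overlaps it on the other strand and was not analysed here.

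Nkx6.1, a homeodomain factor of progenitors and beta cells, had the next largest difference. It stood at 71.0, 57.8 and 64.5 normalized counts in the CAF_CM libraries, against 25.04, 29.6 and 32.4 in the control libraries. The groups did not overlap. The means were 64.5 ± 6.63 in CAF_CM and 29.0 ± 3.73 in control libraries, a log2 difference of 1.13 (SE 0.18), rank 49 of the genes tested.

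Insm1, a repressor downstream of Neurog3, was the most abundant of the 6. Its level was 4629, 3476 and 3818 normalized counts in CAF_CM, against 2769, 2893 and 2905 in control libraries. All CAF_CM libraries were above the controls, and replicate 2 was again the lowest of them. The means were 3974 ± 592 in CAF_CM and 2856 ± 75.1 in control libraries (log2 difference 0.47, SE 0.085).

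St18, a zinc finger factor also known as Myt3, had 696, 799 and 782 normalized counts in CAF_CM, against 561, 489 and 547 in control libraries. The groups did not overlap, and here replicate 1 was the lowest CAF_CM library. The means were 759 ± 55.3 in CAF_CM and 532 ± 38.3 in control libraries (log2 difference 0.51, SE 0.077).

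Isl1, a factor of mature islet cells, had 98.8, 92.1 and 113 normalized counts in CAF_CM, against 77.1, 77.5 and 85.8 in control libraries. The gap was narrow, with 92.1 in the lowest CAF_CM library and 85.8 in the highest control library. The means were 101 ± 10.7 in CAF_CM and 80.1 ± 4.93 in control libraries (log2 difference 0.33, SE 0.13).

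Nkx2.2, which is needed to form beta cells, was close to the detection limit, with 8, 14 and 7 reads in CAF_CM and 5, 9 and 6 reads in control libraries. As normalized counts these were 8.24, 13.7 and 6.64 in CAF_CM, against 4.82, 9.18 and 6.28 in control libraries. The groups overlapped, and the gene was below the filter. Its means were 9.53 ± 3.71 in CAF_CM and 6.76 ± 2.22 in control libraries (log2 difference 0.42, SE 0.38). The difference was 0.15 without CAF_CM replicate 2, 0.23 without control replicate 1, and 0.64 without control replicate 2. Antisense genes overlap Nkx2.2, and strand-specific counting is not stated, so reads of both strands cannot be told apart there.

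**Figure D1:**
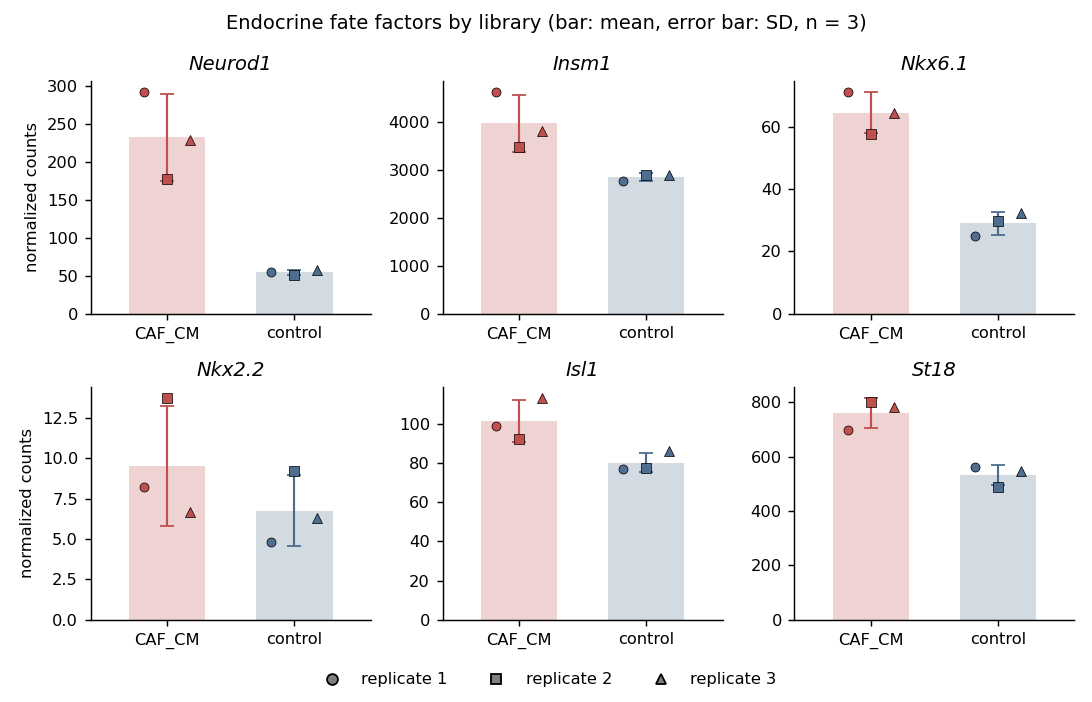
Normalized counts of the 6 genes, CAF_CM left and control right in each panel. Points are libraries (shape marks the replicate number), with group means and SD, 3 libraries a group. All CAF_CM points lie above all control points except for Nkx2.2.

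In 5 of the 6 genes every CAF_CM library was above every control library, a separation that 24.8% of all genes tested showed. Over all genes tested, 34.4% passed the limma test in either direction. The genes were chosen from this contrast, so nothing is read from their count. These 5 genes had values of at least 10 in all 6 libraries, so none passed the filter through the CAF_CM group alone.

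The 6 genes did not share 1 order of the CAF_CM libraries. In Neurod1, Insm1 and Nkx6.1 replicate 1 was highest, replicate 3 next and replicate 2 lowest, an order that 23.1% of all genes tested had. Isl1 was also lowest in replicate 2, which was the lowest CAF_CM library for 35.9% of all genes tested. St18 and Nkx2.2 were highest in replicate 2. The highest CAF_CM library held 2.06 times the level of the lowest for Nkx2.2, at 7 to 14 reads, 1.65 times for Neurod1, 1.33 times for Insm1, 1.23 times for Nkx6.1 and for Isl1, and 1.15 times for St18. Leaving out 1 library at a time kept the log2 difference between 1.87 and 2.23 for Neurod1, 1.03 and 1.21 for Nkx6.1, 0.35 and 0.56 for Insm1, 0.45 and 0.57 for St18, and 0.25 and 0.40 for Isl1.

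**Figure D2:**
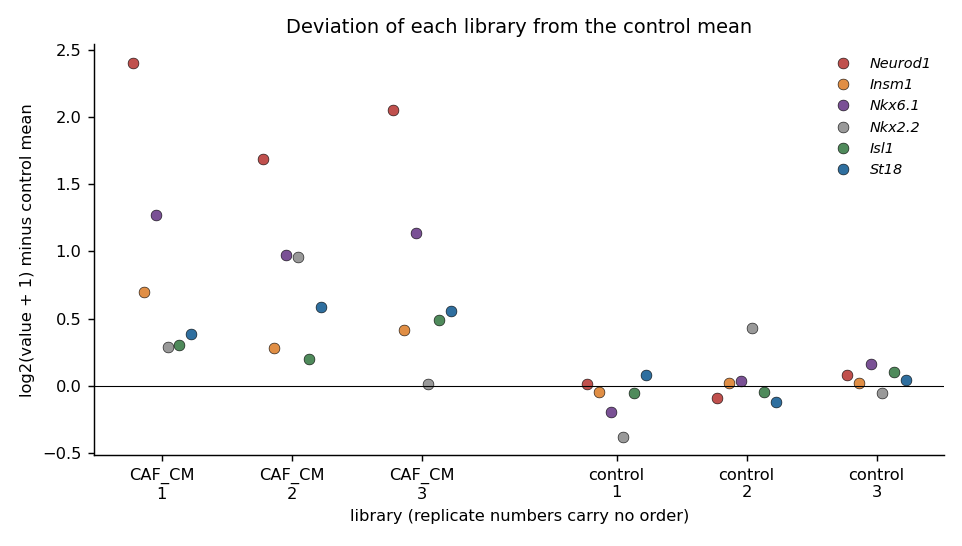
Deviation of each library from the control mean on the log2(value + 1) scale, CAF_CM libraries left and control libraries right, 1 colour per gene. Neurod1 lies between 1.69 and 2.404 in the CAF_CM libraries, Nkx6.1 between 0.98 and 1.27, and St18, Insm1 and Isl1 between 0.20 and 0.70.

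Per kilobase of the longest GENCODE transcript, the order of levels differed between the groups. In CAF_CM, Insm1 led with 1282 ± 191 normalized counts per kilobase, followed by St18 with 129 ± 9.38, Neurod1 with 85.3 ± 21.1, Isl1 with 40.3 ± 4.24, Nkx6.1 with 20.5 ± 2.11 and Nkx2.2 with 4.496 ± 1.75. In control libraries the order was Insm1 with 921 ± 24.2 normalized counts per kilobase, St18 with 90.3 ± 6.50, Isl1 with 31.9 ± 1.96, Neurod1 with 20.0 ± 1.21, Nkx6.1 with 9.25 ± 1.19 and Nkx2.2 with 3.19 ± 1.05. The library values of neighbours in each order did not overlap, and Neurod1 and Isl1 changed places. Insm1 had 15.3 ± 1.74 times the level of Neurod1 per kilobase in CAF_CM and 46.3 ± 3.19 times in control libraries.

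Close relatives of the 6 genes moved in both directions. Neurod4, a neural helix-loop-helix relative of Neurod1, fell to 21.6, 31.3 and 25.6 normalized counts in CAF_CM libraries, against 72.2, 65.3 and 59.7 in control libraries (log2 difference -1.31, SE 0.19, limma adjusted p = 4.32e-04). The groups did not overlap. Per kilobase, the Neurod1 level was 11.5 ± 4.84 times that of Neurod4 in CAF_CM and 1.02 ± 0.138 times in control libraries. Nkx6.2, the near relative of Nkx6.1, fell to 4913 ± 427 normalized counts in CAF_CM, against 6008 ± 336 in control libraries (log2 difference -0.29, SE 0.066, limma adjusted p = 0.00590). Nkx6.2 exceeded Nkx6.1 per kilobase 126 ± 2.97 times in CAF_CM and 346 ± 65.4 times in control libraries. How reads shared by related genes were counted is not stated, so the level of Nkx6.1 beside so abundant a relative is uncertain.

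The Myt relatives of St18 were higher in CAF_CM in the same limma fit. Myt1, which helps to form islet cells, rose to 2134 ± 116 normalized counts in CAF_CM, against 1782 ± 37.6 in control libraries (log2 difference 0.26, SE 0.053, adjusted p = 0.00359). Myt1l, a neuronal factor, rose to 37.2 ± 5.51 normalized counts in CAF_CM, against 16.3 ± 6.12 in control libraries (log2 difference 1.19, SE 0.27, adjusted p = 0.00603). Isl2 rose to 144 ± 9.90 normalized counts in CAF_CM, against 109 ± 8.44 in control libraries (log2 difference 0.40, SE 0.11, adjusted p = 0.0192), but in DESeq2 its adjusted p was 0.0676. In limma, leaving out control replicate 3, control replicate 1 or CAF_CM replicate 1 gave Isl2 an adjusted p of 0.0843, 0.0588 or 0.0504. Nkx2.4 had 17.95 ± 7.05 normalized counts in CAF_CM and 13.4 ± 3.68 in control libraries and did not pass the test. Insm2 and Nkx6.3 lay below the filter, with means under 3 normalized counts in both groups.

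**Figure D3:**
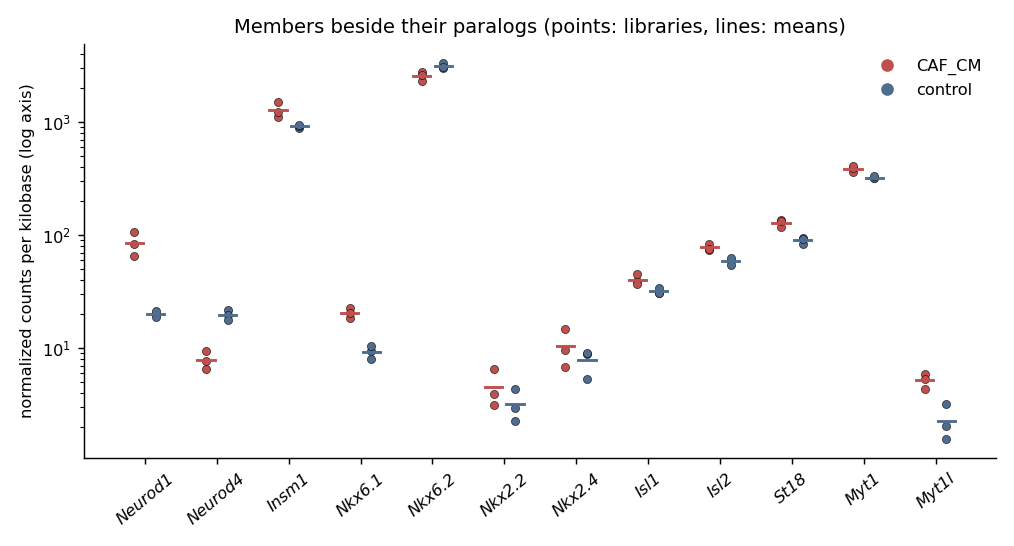
Normalized counts per kilobase of the longest transcript, on a log axis, for the 6 genes beside relatives from the same families, CAF_CM left of control in each pair. Points are libraries and lines are means of 3. Neurod1 lies above Neurod4 in CAF_CM and near it in control libraries, and Nkx6.2 lies far above Nkx6.1 in both groups.

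Of other transcription factors of endocrine fate, more rose than fell in CAF_CM libraries. Of 30 genes listed, 23 had a row and 21 were tested, of which 12 rose, 1 fell and 8 did not pass the test (limma, Benjamini-Hochberg adjustment over all genes, threshold 0.05). Over all genes tested, 18.3% were called higher and 16.1% lower. The median log2 difference was 0.26 in the list and 0.0046 over all genes tested. Myt1 and Myt1l, reported above as relatives of St18, are among the 12 rises. The list was chosen with earlier results of these data known, so its count is a description. Neurog3, Pax4, Fev, Lmx1a, Pou3f4 and Irx1 were not analysed here.

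Rfx3, a regulator of cilia that islet development needs, rose to 1179 ± 56.8 normalized counts in CAF_CM, against 761 ± 22.2 in control libraries (log2 difference 0.63, SE 0.058, limma adjusted p = 4.22e-05). Scrt1, a neural zinc finger repressor, rose to 743 ± 27.3 normalized counts in CAF_CM, against 504.1 ± 25.4 in control libraries (log2 difference 0.56). Sox11 and its relative Sox4, which takes part in endocrine differentiation, rose by 0.45 and 0.38 log2 units. Pdx1, a factor of pancreatic progenitors and beta cells, rose to 5998 ± 192 normalized counts in CAF_CM, against 4847 ± 44.5 in control libraries (log2 difference 0.31). Peg3, Mnx1, Glis3, Runx1t1 and Etv1 rose by 0.39, 0.37, 0.34, 0.28 and 0.25 log2 units. Mnx1 lost its call without control replicate 2 or 3, and Glis3 without CAF_CM replicate 3 or control replicate 1 or 3.

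Mlxipl, the glucose-responsive factor ChREBP, was the 1 listed factor that fell. It fell to 276 ± 44.1 normalized counts in CAF_CM, against 454 ± 20.3 in control libraries (log2 difference -0.72, SE 0.10, limma adjusted p = 4.48e-04). The islet factor Pax6 had 20.1 ± 4.27 normalized counts in CAF_CM and 23.1 ± 5.73 in control libraries. Mafa, an activator of the insulin gene, had 22.1 ± 4.12 in CAF_CM and 26.1 ± 6.202 in control libraries. Neither passed the test. Rfx6, a factor downstream of Neurog3, lay below the filter with 10.2 ± 2.85 normalized counts in CAF_CM and 5.39 ± 2.16 in control libraries.

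**Figure D4:**
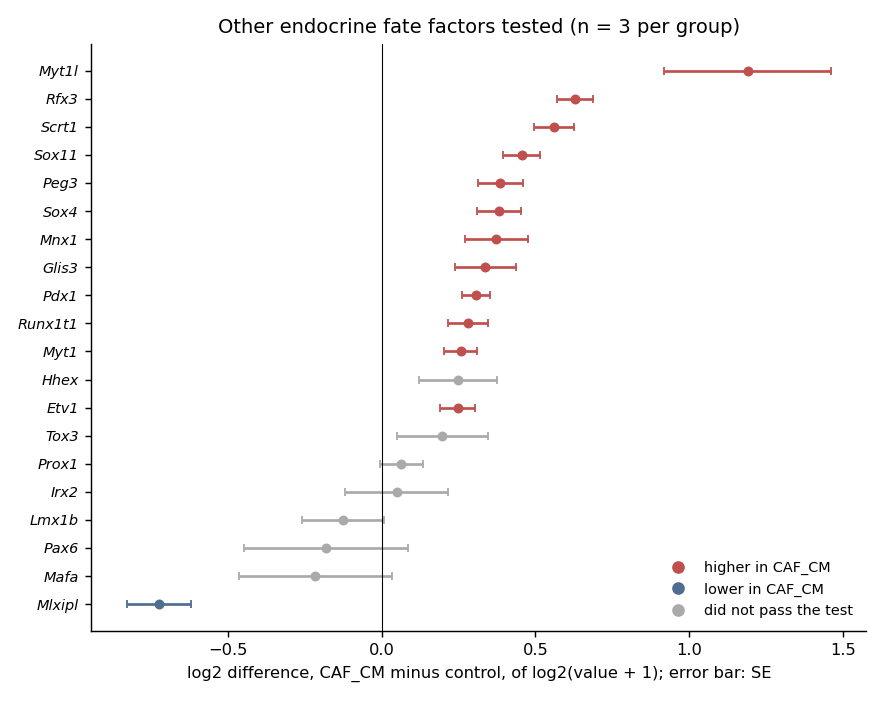
Log2 difference, CAF_CM minus control, of log2(value + 1) for other factors of endocrine fate that were tested, with SE as error bars and 3 libraries a group. Colour shows the limma call. 12 genes are called higher, with Myt1l at the top, and Mlxipl alone is called lower.

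Of 12 tested genes whose products act with or against Neurod1 or related factors, 2 rose and 1 fell. Over all genes tested, 18.3% were higher and 16.1% lower. The rises lie near their share, so nothing is read from these counts. The median log2 difference of the 12 genes was 0.018. The E protein genes Tcf4 and Tcf12, whose products partner Neurod1 on the E-box, rose by 0.34 and 0.36 log2 units (limma adjusted p = 6.77e-04 and 0.00134), while Tcf3 did not pass the test. Id2, whose product binds E proteins and keeps them from DNA, fell to 3677 ± 163 normalized counts in CAF_CM, against 4319.9 ± 50.1 in control libraries (log2 difference -0.23, limma adjusted p = 0.00348). Its relatives Id1, Id3 and Id4 did not pass the test. Without CAF_CM replicate 1 the counts were 4 higher and 4 lower, and with the replicate number as a block 4 were higher.

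Cofactor genes of Insm1, Nkx2.2 and Isl1 gave 10 rises and 3 falls in 24 tested, with a median log2 difference of 0.21. Over all genes tested, 18.3% were called higher and 16.1% lower. The Groucho corepressor genes Tle4 and Tle2, whose family works with Nkx2.2, moved apart. Tle4 rose to 632 ± 33.0 normalized counts in CAF_CM, against 365 ± 16.6 in control libraries (log2 difference 0.79, limma adjusted p = 3.65e-05). Tle2 fell to 1526 ± 58.9 normalized counts in CAF_CM, against 2225 ± 56.8 in control libraries (log2 difference -0.54, limma adjusted p = 4.41e-05). The CoREST gene Rcor1 and the demethylase gene Kdm1a, whose products work with Insm1, rose by 0.36 and 0.25 log2 units, and Rcor3 and Hmg20b fell by 0.23 and 0.17. Ssbp3, a partner of the Isl1 cofactor Ldb1, rose by 0.23. Ldb1 itself had 2419 ± 73.3 normalized counts in CAF_CM and 2521 ± 22.7 in control libraries and did not pass the test. The 10 rises became 7 without control replicate 1 or control replicate 3. The 3 falls became 1 without CAF_CM replicate 3, control replicate 2 or control replicate 3.

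Of 22 progenitor and foregut factors tested, 10 rose and 2 fell, beside 18.3% higher and 16.1% lower over all genes tested. The median log2 difference of the list was 0.15. Rbpjl, the acinar form of a subunit of the PTF1 complex, fell to 2996 ± 79.7 normalized counts in CAF_CM, against 5316 ± 53.4 in control libraries (log2 difference -0.83, limma adjusted p = 1.63e-06). Rbpj, the form used in progenitors and in Notch signalling, rose to 2836 ± 63.0 normalized counts in CAF_CM, against 2039 ± 53.9 in control libraries (log2 difference 0.48, limma adjusted p = 5.77e-05). The Notch ligand gene Jag1 rose by 0.34 log2 units, Onecut2 by 0.44, Onecut1 by 0.77 and Foxa1 by 0.87. Foxa2 fell by 0.20, a call lost without CAF_CM replicate 3 or any 1 control library, and the 2 falls became 4 without CAF_CM replicate 2. The 10 rises became 7 without control replicate 1 or control replicate 2. Rest, the repressor of neuronal and endocrine genes, had 174 ± 1.96 normalized counts in CAF_CM and 174 ± 14.3 in control libraries (log2 difference 0.0071, SE 0.10, limma adjusted p = 0.965).

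Hormone genes had low levels, and those below the filter lay near the detection limit. Of 14 listed, 7 had a row, 4 were tested and 1 was called higher, beside 18.3% called higher over all genes tested. With so few genes tested, nothing is read from this count. Cck, the cholecystokinin gene, rose to 27.5 ± 6.77 normalized counts in CAF_CM, against 13.9 ± 4.64 in control libraries (log2 difference 0.96, SE 0.29, limma adjusted p = 0.0248). This call was lost in DESeq2 (adjusted p = 0.0637) and, in limma, without CAF_CM replicate 2 or 3 or control replicate 1 or 2, with adjusted p-values up to 0.103. Npy had 27.5 ± 2.496 normalized counts in CAF_CM and 17.8 ± 3.13 in control libraries (limma adjusted p = 0.0558).

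The glucagon gene Gcg had 8.87 ± 4.26 normalized counts in CAF_CM and 8.35 ± 2.16 in control libraries, below the filter. The pancreatic polypeptide gene Ppy had 12.2 ± 2.24 in CAF_CM and 14.0 ± 3.97 in control libraries, and Tph1, an enzyme of serotonin synthesis, had 13.5 ± 3.66 in CAF_CM and 12.5 ± 5.10 in control libraries, both without a call. Ghrl had 7.45 ± 4.94 in CAF_CM and 6.796 ± 2.55 in control libraries, and Tph2 had 3.28 ± 0.561 in CAF_CM and 3.67 ± 0.991 in control libraries, below the filter. Ins1, Ins2, Sst, Pyy, Iapp, Gast and Ucn3 were not analysed here.

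Of 36 tested genes of glucose sensing, hormone processing and secretion, 7 rose, 11 fell and 18 had no call, with a median log2 difference of -0.013. The shares over all genes tested were 18.3% higher and 16.1% lower, and the rises lie near theirs. Ptprn, a membrane protein gene of secretory granules, rose to 3166 ± 70.0 normalized counts in CAF_CM, against 2518 ± 72.1 in control libraries (log2 difference 0.33, limma adjusted p = 3.97e-04). Rab3b, a small GTPase gene of vesicle release, rose to 75.8 ± 18.6 normalized counts in CAF_CM, against 46.9 ± 4.04 in control libraries (log2 difference 0.66, limma adjusted p = 0.0211), a call lost without CAF_CM replicate 2, control replicate 1 or control replicate 2. The rises numbered 3 with library totals as scaling, 4 without CAF_CM replicate 2, 2 without control replicate 1, 3 without control replicate 2 and 3 without control replicate 3.

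Of the genes that fell, Scg2, a granin, had 22.7, 19.6 and 11.4 normalized counts in CAF_CM, against 65.5, 66.3 and 67.0 in control libraries (log2 difference -1.89, SE 0.24, limma adjusted p = 2.22e-04). All its CAF_CM values were below all control values. The prohormone convertase gene Pcsk2 fell to 227 ± 38.8 normalized counts in CAF_CM, against 451 ± 16.6 in control libraries (limma adjusted p = 1.13e-04). Chga, the chromogranin A gene, fell to 23040.0 ± 943 normalized counts in CAF_CM, against 31229 ± 208 in control libraries (log2 difference -0.44). The carrier protein gene Ttr fell by 0.83 log2 units. Abcc8 and Kcnj11, the subunits of the potassium channel that couples glucose to insulin release, fell by 0.49 and 0.27 log2 units. Kcnj11 lost its call when CAF_CM replicate 3, control replicate 1 or control replicate 2 was left out. The falls numbered 7 without control replicate 2.

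**Figure D5:**
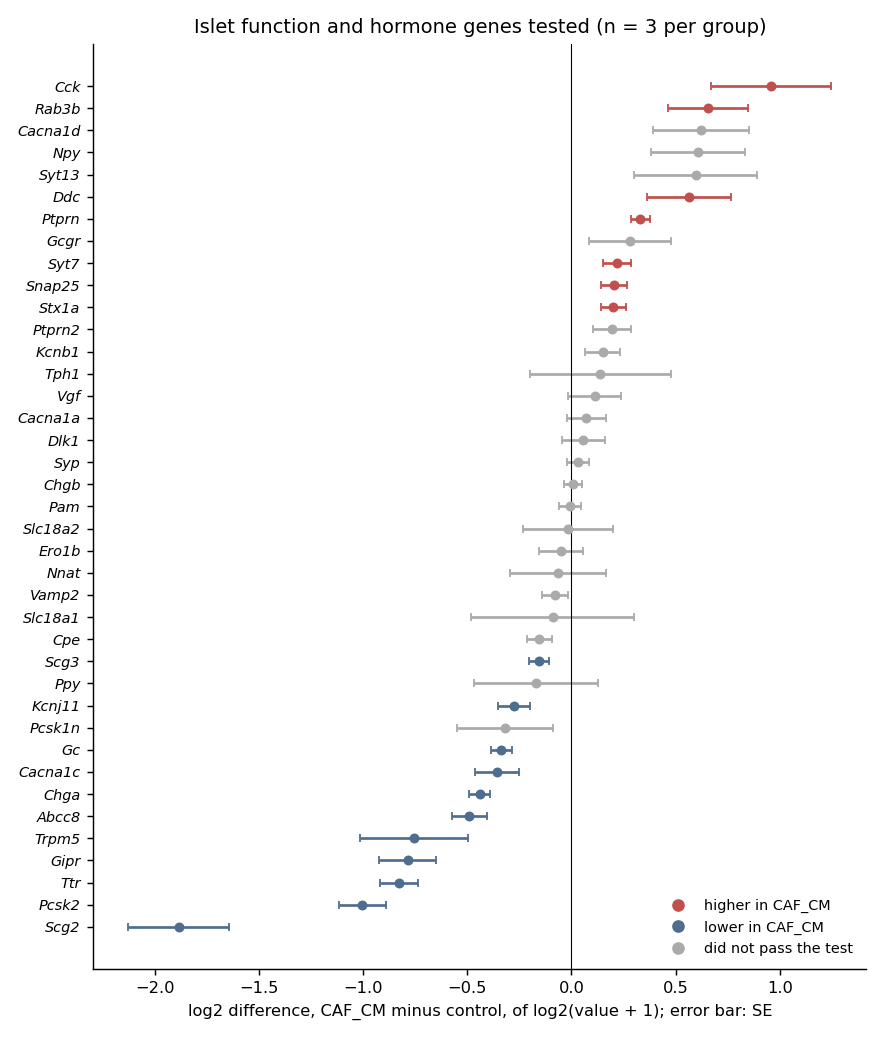
Log2 difference, CAF_CM minus control, of log2(value + 1), with SE, for tested genes of islet function and hormones, 3 libraries a group. Colour shows the limma call. Cck and Rab3b lead the genes called higher among those drawn, and Scg2 and Pcsk2 those called lower.

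Markers of other cell types were read in the same fit. Of 30 neuronal markers, 27 had a row and 25 were tested, of which 18 rose and 1 fell, with a median log2 difference of 0.51. Over all genes tested, 18.3% were called higher and 16.1% lower. The rises of the list numbered 15 to 18 over the alternatives. Celf3, Map2 and Snap25 lost the call in 11, 5 and 4 of 17 alternatives. The summed level of the neuronal markers was 25313 to 27015 normalized counts in CAF_CM libraries and 20242 to 20593 in control libraries. Nefm, a neurofilament gene, rose to 1096 ± 27.2 normalized counts in CAF_CM, against 567 ± 21.9 in control libraries (log2 difference 0.95, limma adjusted p = 2.98e-06), and the neuronal RNA-binding protein gene Elavl2 rose by 0.83 log2 units. The 1 fall was that of Nsg1, and that call was lost without any 1 of 5 libraries, the exception being CAF_CM replicate 1. The part of the neuronal markers in the values of the 6 genes was not tested.

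Of 9 ductal markers tested, 4 rose, beside 18.3% called higher over all genes tested. Of these rises, 1, that of Spp1, passed the filter through the CAF_CM libraries alone. Those of Onecut1 and Sox9 were also counted above among the progenitor and foregut factors. Sums over the list were 3776 to 4029 normalized counts in CAF_CM and 2883 to 2961 in control libraries. The duct keratin gene Krt7 had 6.88 ± 0.708 in CAF_CM and 1.33 ± 0.516 in control libraries, below the filter. Fibroblast markers gave 1 rise and 1 fall in 7 tested, near the shares of 18.3% higher and 16.1% lower over all genes, with sums of 3165 to 3649 in CAF_CM and 3515 to 3710.4 in control libraries. Of that sum, Pdgfrb gave 3016 ± 209 in CAF_CM and 3254 ± 89.7 in control libraries, while the collagen gene Col1a1 had 12.5 ± 2.66 in CAF_CM and 9.09 ± 2.74 in control libraries. The rise, Col1a2, was lost in DESeq2 and without any 1 of 5 libraries, the exception being CAF_CM replicate 3, and the fall, Dcn, was lost without control replicate 3, while 2 fell without CAF_CM replicate 2. The leukocyte gene Ptprc had 1.96 ± 0.955 in CAF_CM and 2.67 ± 1.47 in control libraries, and the endothelial gene Pecam1 had 17.4 ± 1.24 in CAF_CM and 11.5 ± 1.82 in control libraries (limma adjusted p = 0.111). The part of these markers in the values of the 6 genes was not tested.

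The genes most like each of the 6 were those with the smallest root mean square distance over the 6 library values on the log2 scale, each minus its own control mean, among 11267 genes averaging 50 or more in 1 group. This distance uses the same libraries and is a description. Nearest to Neurod1 were Tubb3, a tubulin of neurons (distance 0.29), Lratd2 (0.31), Cyp1b1 (0.35), St3gal1 (0.49) and Draxin (0.49). Tubb3 had 1016, 719 and 851 normalized counts in CAF_CM replicates 1, 2 and 3, against 293, 270.4 and 239.7 in control libraries. Tubb3 and Cyp1b1 shared with Neurod1 the order of the CAF_CM libraries, highest in replicate 1 and lowest in replicate 2. Lratd2, St3gal1 and Draxin had other orders. A choice by this distance favours such likeness, so nothing is read from it.

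Nearest to Nkx6.1 were Itga4, an integrin subunit gene (distance 0.12), the neuronal splicing factor gene Rbfox3 (0.13) and the adaptor gene Shc2 (0.15). Itga4 had 155, 132 and 157 normalized counts in CAF_CM, against 69.3, 75.5 and 77.5 in control libraries, and its groups did not overlap. Nearest to Insm1 were Drc1 (0.056), Zc4h2 (0.062) and Aen (0.065). Isl1 was closest to Ass1 (0.032), Ing5 (0.038) and Gtf2e1 (0.043), and St18 to Fnip2 (0.047), Zfp81 (0.051) and Hic2 (0.054). Nkx2.2 was closest to Acvr1c (0.15), Pdzd2 (0.17) and Edaradd (0.18). Within the 6 genes, the distance was smallest between Insm1 and Isl1 (0.17) and largest between Neurod1 and Nkx2.2 (1.26).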

How the data were processed

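RNA of 6 samples of the 266.6 line, 3 CAF_CM and 3 control, was sequenced after Illumina TruSeq preparation, and all RNA integrity numbers were 10, per the labels' protocols. FastQC, DESeq2 and the human build hg19 are named in the submitters' processing notes, without a role, while the symbols are those of mouse. Aligner, counter and mouse build are not given in the sources used here.

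The deposited values, called normalized counts here, are a signal of 0 or more whose steps are those of read counts divided by 1 factor per library, as judged from the values. In every library 100% of the values were whole multiples, within 0.001 of a read, of the worth of 1 read, so reads were recovered. Of 20764 rows, 168 without a symbol held 0.153% to 0.261% of the reads and stayed out.

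The main test was limma 3.58.1 (R 4.3.3) with a variance trend on log2(value + 1), which understates fold changes of low genes, on the 16169 genes reaching 10 in 3 or more libraries, with Benjamini-Hochberg adjustment and a threshold of 0.05. It was also run on simulated data with 200 changed genes and a common spread for each group. Spread that differs by gene was not simulated, so error rates here are not read from that run. On the deposited values limma called 2953 genes higher and 2602 lower in CAF_CM. EdgeR 4.0.16 on the recovered reads called 2888 higher and 2682 lower, with 5466 shared in direction. With library totals as scaling, 2231 were higher and 3179 lower.

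The 6 genes and the 12 other lists were chosen with earlier results of these data known. The genes named are the 6, up to 4 called genes per list and direction by lowest adjusted p, or the 2 of highest mean where none was called, hormones and relatives with a row, Rest, and the genes nearest to the 6. Predicted genes were left out. Some genes are in more than 1 list, and some that are counted in a list are not reported here by name or drawn. Other genes were named after their values were seen. Lengths are of the longest GENCODE transcript. Alternatives were edgeR, DESeq2 1.42.0, limma-voom, pseudocounts of 0.5 and 5, no filter, a filter of 1 CPM, TMM or library totals as scaling, a block for the replicate number, and leaving out each library. A weight per group was added after seeing the data.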

Additional observations from a re-analysis of the deposited data

How the results depend on the processing

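The log2 differences of the 6 genes changed by less than the SD between replicates, and none changed sign, under the alternatives run. Leaving out 1 library at a time gave 0.15 to 0.64 for Nkx2.2. It gave 1868 to 3509 genes higher in CAF_CM and 1659 to 2943 lower, 2 to 9 islet function genes higher and 7 to 12 lower, and 10 to 13 other endocrine fate factors higher with 1 lower. With library totals as scaling, 3 islet function genes were higher. The cause was not tested. Of 94 called genes in the lists, 64 kept the call in every alternative and 0 changed sign. Of 7 genes without a call that the naming rule had picked, 0 gained one. Pax6, Mafa, Tcf3, Id1, Id3, Id4 and Ldb1 were not among these 7. With the replicate block, 3166 genes were higher and 2755 lower, and 4 of the genes acting with or against Neurod1 or related factors were higher. Deviations of same-numbered libraries correlated at 0.0703, 0.0291 and 0.0305, each library's best match, which is a hint from the data and not the design. As these are under 0.1, the numbers were not taken as pairs. Depth limits Nkx2.2, with 5 to 14 reads per library, and the hormone genes.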
